A study of Mus musculus with 24 samples.

Results

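The comparison described here set liver pieces fixed in formalin for 3 wk against pieces of the same livers fixed for 18 h, in mice given furan. Its members are 8 RNA-seq libraries of formalin-fixed, paraffin-embedded (FFPE) tissue, 4 at each fixation time, out of 24 samples in the series, and they were chosen by their labels and paired by animal number (41, 42, 43 and 44). All 24015 gene symbols of the deposited count table were considered, and 12671 passed the filter on low counts. The animals were female B6C3F1 mice, aged 5 to 6 weeks when the study began, and every one of these 4 animals received furan at 8 mg/kg body weight in corn oil by gavage on 21 days, with the liver collected 4 h after the last dose. Each liver was divided, so that an FFPE 18 h piece, an FFPE 3 wk piece and a frozen piece came from 1 animal. RNA of the 18 h pieces came from 1 section of 10 µm and RNA of the 3 wk pieces from 2 such sections, so fixation time and the number of sections cannot be told apart. The labels put the RNA integrity number of FFPE RNA between 1.3 and 2.4. Furan was common to both groups, so the comparison concerns fixation in furan-treated liver and not the response to furan.

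Formalin joins RNA to proteins and to other RNA through methylene bridges, and RNA from paraffin blocks is recovered as short, chemically modified pieces. A library selected on poly(A) keeps those pieces that still carry the tail, or another run of adenines long enough to bind oligo(dT), so that short RNA is read mainly near the 3′ end of a transcript, which in most genes is the 3′ untranslated region (UTR). Liver tissue consists mostly of hepatocytes, which secrete albumin, apolipoproteins and clotting factors, beside endothelial cells, stellate cells and resident macrophages. In bulk tissue, fewer cells of a type and less RNA per cell cannot be told apart.

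The libraries held 16269854 to 22494012 counts at 18 h and 3895208 to 11780691 at 3 wk, and the 3 wk piece was the shallower one in 4 of 4 livers (exact sign-flip permutation test over 4 pairs, p = 0.13, the smallest that 4 pairs allow). Albumin (Alb), the main secreted protein of hepatocytes, held 8.44 to 9.77% of counts at 18 h and 6.41 to 7.17% at 3 wk, so the liver label held in all 8. The ribosomal RNA precursor Rn45s held 7.76 to 16.5% and 6.42 to 13.2%, and was higher at 3 wk in 2 of 4 livers (exact sign-flip permutation p = 0.75). The 10 most abundant genes took 29.8 ± 3.31% (SD, n = 4) at 18 h and 23.9 ± 2.50% (n = 4) at 3 wk. With every library thinned to 3895208 counts, 14499.8 ± 327 genes had at least 1 count at 18 h and 13395 ± 436 at 3 wk, fewer in 4 of 4 livers. With at least 5 counts asked for, the ranges were 11713 to 11921 genes at 18 h and 11807 to 12209 at 3 wk. By that measure the 3 wk piece had more genes in animals 41, 42 and 44 and fewer in animal 43. The 3 wk piece of animal 42 stood apart in 17 skeletal muscle genes, which held 0.148% of its counts against 0.00123 to 0.00257% in the other 3 wk pieces and 0.00116 to 0.00655% at 18 h. Their part in the results was not tested, but the count of genes called without animal 42 is given with the main count.

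Of the 12671 genes tested, 2015 rose and 2557 fell after 3 wk relative to 18 h, at an adjusted p under 0.05 in edgeR's paired quasi-likelihood test. These 4572 genes are 36.1% of those tested, 15.9% rising and 20.2% falling. At least 2-fold differences were found for 409 of the rises and 784 of the falls. The 3 wk and 18 h ranges did not overlap for 4322 genes (34.1%), and all 4 livers moved the same way for 1919 of the rises and 2443 of the falls. Without animal 42 the count was 4121, and without animal 43, the shallowest 3 wk library, it was 4498. The split depended on scaling: the main scaling (TMM) assumes that most genes do not differ, and with scaling to total counts alone 3850 genes rose and 1357 fell, since that scaling moved the median log2 difference of all genes by 0.325, from -0.05 to 0.27. Differences below are relative to the TMM scale. Levels are CPM, read counts relative to the TMM-scaled total of the library, differences are log2 fold changes of 3 wk over 18 h ± SE, and "rose" and "fell" are used for genes past the threshold.

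The 12 largest falls and 12 largest rises were taken among called genes whose groups did not overlap and whose higher mean reached 5 CPM. The abundant falls were Sec62, Srek1ip1 and Eif5b. Sec62, a membrane protein of the endoplasmic reticulum that acts in protein import and in turnover of that organelle, stood at 765, 923, 839 and 781 CPM at 18 h and 140.4, 118, 193 and 116 CPM at 3 wk, for animals 41 to 44 in this order. Every 3 wk piece lay far below every 18 h piece, and Sec62 fell by 2.57 (SE 0.11) on the log2 scale (adjusted p = 4.79e-11). Srek1ip1, whose protein binds a splicing factor, stood at 93.1, 113, 105 and 129 CPM at 18 h and 18.3, 13.7, 24.2 and 19.4 CPM at 3 wk, without overlap, and fell by 2.56 (SE 0.14) with adjusted p = 4.01e-10. Eif5b, the initiation factor that helps to join the ribosomal subunits, stood at 549.9, 666, 579.9 and 586 CPM at 18 h and 91.9, 89.5, 180.1 and 83.9 CPM at 3 wk. The 3 wk piece of animal 43 was well above the other 3 wk pieces there and still lay below all 18 h pieces, and Eif5b fell by 2.50 (SE 0.14) with adjusted p = 4.07e-10. An annotated gene, Rev1, overlaps Eif5b on the opposite strand, and the library kit does not keep strand, so some Eif5b counts could belong to Rev1.

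The other largest falls were at lower levels. Dmbt1, a secreted scavenger-receptor glycoprotein, stood at 7.82, 4.07, 57.3 and 26.3 CPM at 18 h and 0.478, 0.489, 2.56 and 0.15 CPM at 3 wk and fell by 4.78 (SE 0.44). Its 18 h values spread widely between livers, and the liver with the highest 18 h value (animal 43) also had the highest 3 wk value. The transcription factor Sox4, opposite Gm26735, ranged over 7.75 to 11.5 CPM at 18 h and 0.367 to 2.1 CPM at 3 wk and fell by 2.97 (SE 0.49). Neurotrimin (Ntm), a neural cell adhesion protein, ranged over 7.95 to 11.5 CPM at 18 h and 0.451 to 6.06 CPM at 3 wk, its highest 3 wk value again in animal 43, and fell by 2.91 (SE 0.56). The Wnt antagonist Sfrp1 fell by 2.65 (SE 0.70), Cdk2ap1, a partner of the kinase CDK2, by 2.43 (SE 0.70), the coiled-coil gene Ccdc34 by 2.20 (SE 0.35), Lrrc24 (opposite Lrrc14) by 2.19 (SE 0.54) and the exonuclease gene Myg1 by 2.18 (SE 0.28). Most of the last 300 nt of Cdk2ap1 (71.3% of its 50-nt stretches) also occurs in another annotated gene, so its counts are uncertain. The microRNA precursor Mir6385 had 342 counts over the 4 pieces at 18 h and 3 at 3 wk, a ratio of 62 after scaling (95% counting interval 21 to 302), and lies opposite the Pml gene, so these counts cannot be assigned to a strand. All 12 largest falls had the same sign in control livers, where 6 of them passed the test.

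The transcripts of Srek1ip1, Eif5b and Ccdc34 share a feature that is easier to see in the sequence than in a number: a coding stretch dense in adenines, away from the poly(A) tail. The stretches are shown because oligo(dT) binds runs of adenine, and whether it did so here was not tested. Each is 60 nt, 5′ to 3′ on the sense strand, from the GENCODE M21 transcript of the gene (build GRCm38, + strand for all of those shown), and the capitals mark the 30 nt with most adenines in the transcript, its last 50 nt left out. They lie in Srek1ip1 at chr13:104837406-104837465 (exon 5 of 5), Eif5b at chr1:38021596-38021655 (exon 5 of 24) and Ccdc34 at chr2:110040698-110041285 (across exons 4 and 5 of 6). The densest stretch of Lrrc47 (chr4:154018996-154019416, across exons 5 and 6 of 7) and that of Hook1 (chr4:95993172-95995796, across exons 5 and 6 of 22), genes among the largest rises, are shown for contrast.
Srek1ip1: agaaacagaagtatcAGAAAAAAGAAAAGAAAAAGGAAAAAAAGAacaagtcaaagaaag
Eif5b: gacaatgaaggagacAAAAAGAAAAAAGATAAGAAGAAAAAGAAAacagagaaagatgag
Ccdc34: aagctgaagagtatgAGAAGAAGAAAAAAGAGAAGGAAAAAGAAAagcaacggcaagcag
Lrrc47: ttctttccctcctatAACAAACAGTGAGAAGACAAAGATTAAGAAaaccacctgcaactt
Hook1: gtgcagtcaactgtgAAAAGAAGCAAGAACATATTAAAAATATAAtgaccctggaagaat

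The capitalised windows hold 24 adenines of 30 in Srek1ip1, 24 in Eif5b and 22 in Ccdc34, against 18 in Lrrc47 and 20 in Hook1. The falls shown were picked for a coding window of 22 or more adenines. The rises shown were picked for level and a coding window, with no such cut, so the contrast follows in part from that choice. Not shown are Sec62, a fall with a coding window of 25, Myg1, a fall with 12, and the rises Mfsd4 and Osbpl3, with 24 each. Of the 12 largest falls 6 had a window of 22 or more adenines anywhere in the transcript, of the 12 largest rises 4 did (11 with a transcript), and of all tested genes 14.3% did. These windows were looked at after the values were known, so they are a description with no test of its own. Across all tested genes the relation to adenine density was not in 1 direction. In the plot of dense windows, the median log2 ratio was -0.329 for genes whose densest 30 nt held 16 or fewer adenines (n = 4687), 0.103 for 17 to 20 (n = 5384), 0.208 for 21 to 23 (n = 1571), 0.253 for 24 or 25 (n = 507) and -0.213 for 26 or more (n = 439). In that last class 30.5% of genes fell and 12.8% rose, where the background is 20.2% and 15.9%. Srek1ip1, Eif5b and Ccdc34 are not in it, and they fell against the lean of their own classes. With 21 to 23 adenines 24.1% of genes rose and 10.8% fell, and with 24 or 25 it was 25.6% and 12.6%. The class of 26 or more differed from the classes of 17 to 25 by -0.351, -0.429, -0.332 and -0.316 in animals 41 to 44. Genes with 26 or more thymines in 30 nt lay above the corresponding classes by 0.217, 0.158, 0.236 and 0.246. Among genes with a 3′ UTR over 1000 nt the median was -0.161 with 26 or more adenines (n = 377) and 0.307 with 24 or 25 (n = 416). In control livers, over all genes, the class of 26 or more had a median of -0.416 and the class of 16 or fewer -0.361.

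**Figure D1:**
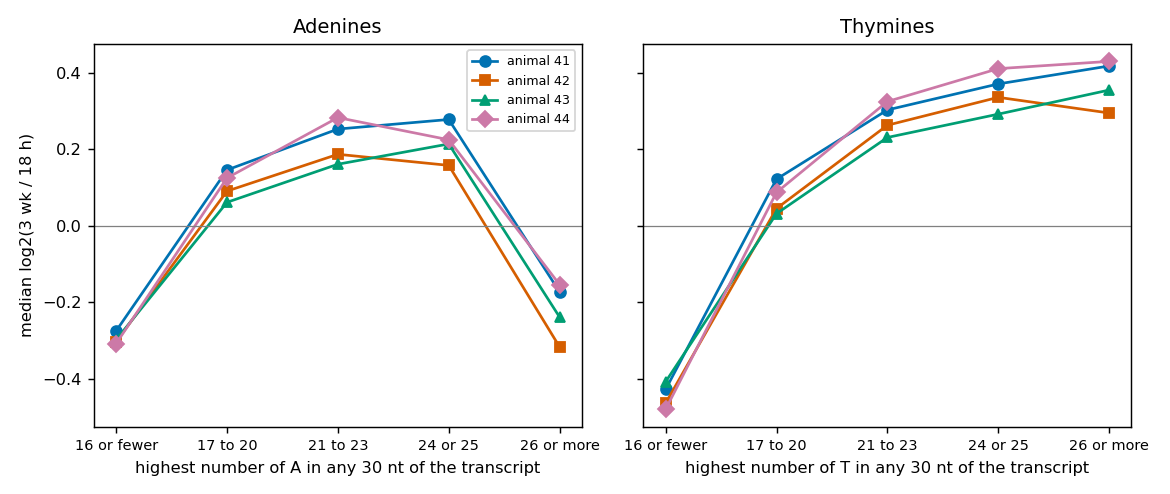
Median log2 ratio of 3 wk over 18 h (vertical axis) for genes grouped by the highest number of adenines (left) or thymines (right) in any 30 nt of the transcript, 1 line for each animal. In all 4 animals the genes with 26 or more adenines drop below those with 17 to 25, between -0.154 and -0.317, and the genes with 26 or more thymines stay above 0.

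The largest rises at a level above 20 CPM were Lrrc47, Hook1 and Eif2s3x. Lrrc47, a leucine-rich repeat gene, stood at 5.12, 5.06, 5.9 and 5.24 CPM at 18 h and 20.3, 47.2, 21.4 and 20.5 CPM at 3 wk, and rose by 2.26 ± 0.25 (adjusted p = 1.09e-06). The groups did not overlap, Smim1 lies on the opposite strand, and the 3 wk piece of animal 42 lay above the other 3 wk pieces, which were close together. Hook1, an adaptor that links cargo to microtubules, stood at 6.23, 5.62, 6.18 and 4.77 CPM at 18 h and 26, 29.6, 21 and 30.8 CPM at 3 wk, and rose by 2.23 ± 0.23 with adjusted p = 3.34e-07. Eif2s3x, the X-linked gene for the gamma subunit of initiation factor eIF2, stood at 6.16, 7.94, 9.27 and 9.18 CPM at 18 h and 29.4, 33.6, 49.9 and 39.5 CPM at 3 wk, and rose by 2.22 ± 0.18 with adjusted p = 2.67e-08. For both genes every 3 wk piece was far above every 18 h piece. The remaining rises of the 12 were low at 18 h. The gastric mucin Muc6 ranged over 0 to 0.856 CPM at 18 h and 4.16 to 6.76 CPM at 3 wk and rose by 4.01 ± 0.85, and 4931406H21Rik, named only by its clone, rose by 4.18 ± 0.76. Mfsd4 rose by 2.67 ± 0.57, the small nucleolar RNA Snora74a, inside annotated genes of the same strand, by 2.45 ± 0.65, the Rab27 effector Sytl5 by 2.18 ± 0.32, the oxysterol-binding family gene Osbpl3 by 2.03 ± 0.74, the imprinted gene Peg3 by 2.02 ± 0.57 and C230091D08Rik by 1.96 ± 0.53. The lowest 3 wk value of Peg3 met its highest 18 h value, both 2.33 CPM in animal 43. Osbpl3 did not pass without any 1 of animals 41, 42 or 43, Peg3 and C230091D08Rik did not pass without animal 41 or 44, and Snora74a did not pass without animal 44. Of the 12 rises 8 had the same sign in control livers and 1, Eif2s3x, passed there.

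**Figure D2:**
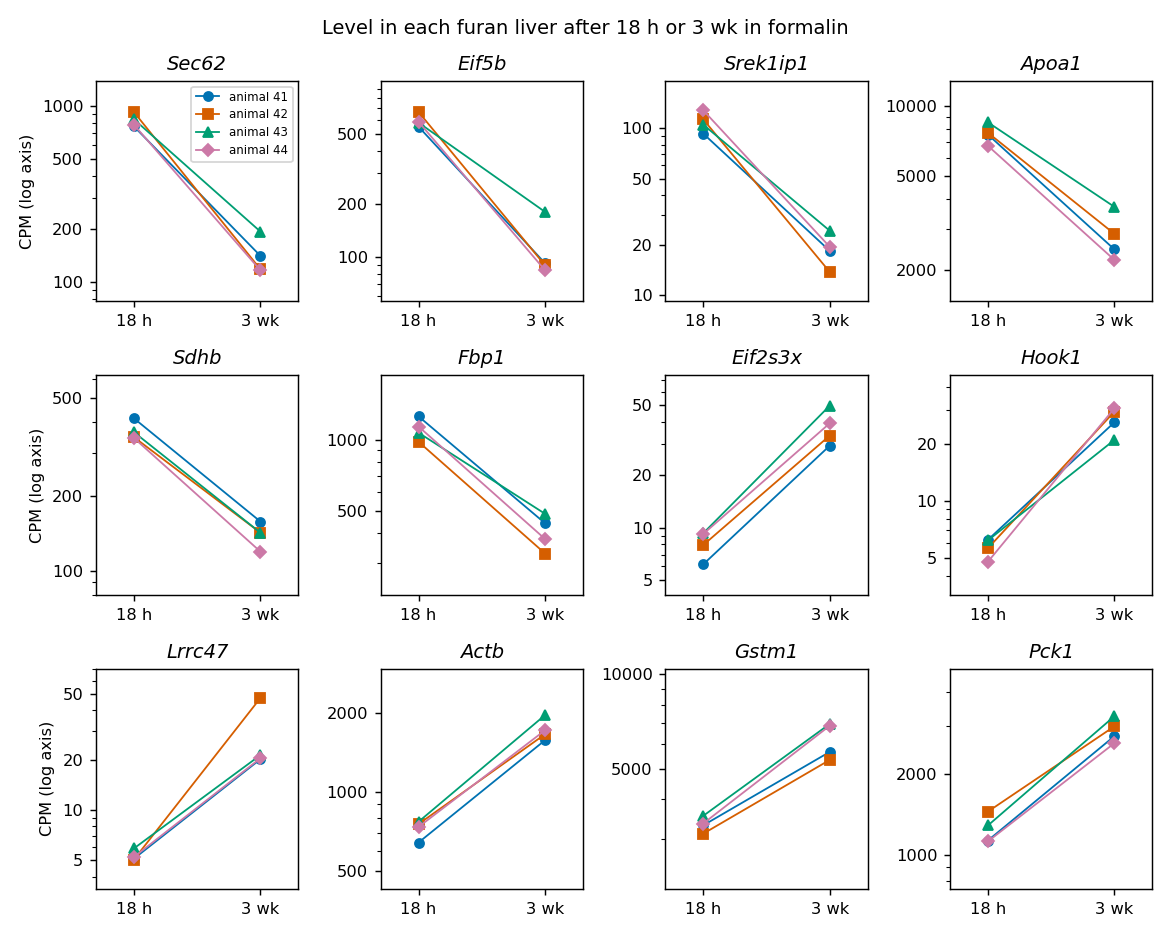
Level of 12 genes in CPM (log axis) in the 18 h and the 3 wk piece of each furan liver, 1 line for each animal. The lines of all 4 animals run the same way in each panel, down for Sec62, Eif5b, Srek1ip1, Apoa1, Sdhb and Fbp1, and up for Eif2s3x, Hook1, Lrrc47, Actb, Gstm1 and Pck1.

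Over all genes, the difference between fixation times went with the length of the 3′ UTR. Genes were put in quintiles by the 3′ UTR length of their longest coding transcript, which was available for 12202 of the tested genes (96.3%). In the quintile with the shortest 3′ UTRs (0 to 367 nt) 46.9% of genes fell and 2.38% rose, and in the quintile with the longest (2586 nt and more) 9.05% fell and 30.9% rose. The median log2 fold changes of the quintiles were -0.67, -0.23, 0.09, 0.19 and 0.32. In single animals the longest quintile exceeded the shortest by 0.989, 0.928, 0.808 and 1.04 (animals 41 to 44), a mean of 0.941 ± 0.0999 (SD, n = 4). All 4 livers showed it, and the exact sign-flip permutation p was 0.13, the smallest that 4 pairs allow (adjusted p = 0.146 over 7 such tests). Across genes, which are not independent replicates, Spearman's rho was 0.451. The order held at high level: among 3903 genes of at least 32 CPM the longest quintile exceeded the shortest by a mean of 1.01, with 80.8% of the shortest quintile falling and 49.6% of the longest rising.

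**Figure D3:**
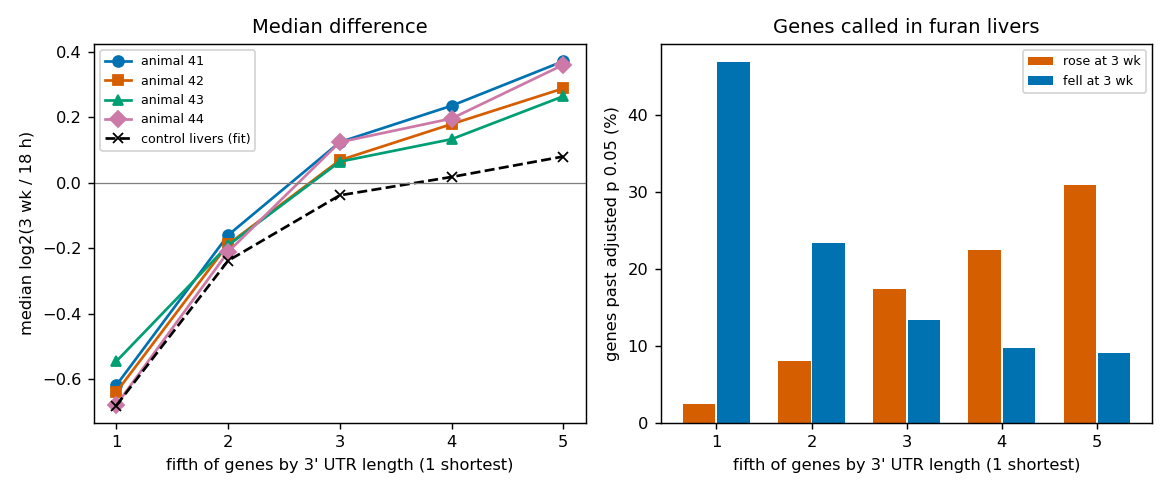
Left, median log2 ratio of 3 wk over 18 h for quintiles of genes by 3′ UTR length, 1 line for each furan animal and a dashed line for the fitted difference in control livers. Right, percent of genes in each quintile that rose or fell in furan livers: falls go from 46.9% to 9.05% and rises from 2.38% to 30.9%.

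Other properties of the transcript moved with the difference too. The longest quintile of transcripts exceeded the shortest by a mean of 0.861 ± 0.129 (SD, n = 4), and the quintile with the highest GC content in the last 300 nt lay below the lowest by a mean log2 difference of -0.785 ± 0.0786 (n = 4). Coding length separated the quintiles less, by 0.402 ± 0.0839, and the number of exons by 0.213 ± 0.0259. The 3′ UTR and GC content of the end are themselves related, so genes were split by both. Within quintiles of end GC the longest 3′ UTR quintile exceeded the shortest by 0.651 to 0.89, within quintiles of coding length by 0.77 to 1.11 and within quintiles of expression level by 0.905 to 1.06. Within quintiles of 3′ UTR length, genes with GC-rich ends differed from those with GC-poor ends by -0.451 to -0.555. Either property went with the difference at a fixed value of the other. How they relate to the chemistry of fixation was not tested.

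Genes for the protein machinery of mitochondria fell almost as a whole. Of 76 nuclear genes for subunits of the respiratory chain, which passes electrons to oxygen and drives ATP synthesis, 70 fell and none rose (median -0.97), where the background is 20.2% falling and a median of -0.05. Sdhb, the iron-sulfur subunit of succinate dehydrogenase, stood at 414, 347, 364 and 345 CPM at 18 h and 158, 142, 142 and 119 CPM at 3 wk, without overlap, and fell by 1.39 (SE 0.08) with adjusted p = 5.96e-10. Ndufa5 of complex I fell by 1.62 (SE 0.11), Uqcrc1 and Uqcrq of complex III by 1.25 (SE 0.09) and 1.18 (SE 0.08), while the largest succinate dehydrogenase subunit, Sdha, did not pass (-0.17 ± 0.07, adjusted p = 0.0763). The median of the list was -1.01, -0.95, -0.726 and -1.13 in animals 41 to 44, and the list held 1.53 to 1.85% of counts at 18 h and 1.09 to 1.34% at 3 wk. Of 75 mitochondrial ribosomal protein genes 63 fell and none rose (median -0.85), among them Mrpl12 by 1.15 (SE 0.09) and Mrps21 by 1.84 (SE 0.18). The median 3′ UTR of the tested members was 188.5 nt in the first list and 329 nt in the second, against 1113 nt over all tested genes. A nearer comparison is the quintile with the shortest 3′ UTRs, where 46.9% of genes fell (median -0.669). Among genes of at least 32 CPM, 80.8% of that quintile fell (median -0.721). The part of 3′ UTR length in the falls of these lists was not tested. With scaling to total counts 57 respiratory chain genes and 47 mitochondrial ribosomal genes still fell.

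Genes of the proteasome and of translation fell in large part as well. Of 37 genes for subunits of the proteasome, which degrades ubiquitin-tagged proteins, 32 fell and none rose (median -0.85), with Psmb4 over 203 to 231 CPM at 18 h and 81.4 to 87.3 CPM at 3 wk and a fall of 1.35 (SE 0.09). Psmd1 fell by 1.88 (SE 0.13), but another annotated gene on the same strand shares its end. Of 74 cytosolic ribosomal protein genes 39 fell and 1 rose, Rpl15 at 0.79 (median -0.62). Rpl32, with Cand2 on the opposite strand, fell by 1.42 (SE 0.10), from 179.6 to 67.1 CPM. Many ribosomal protein genes have near-identical processed copies, so their counts are uncertain. Among 36 translation factors 19 fell and 6 rose (median -0.67), and the direction differed within complexes: Eif3f and Eif3i, subunits of initiation factor eIF3, fell by 1.30 (SE 0.09) and 1.35 (SE 0.12), while Eif3a, the scaffold subunit of the same complex, rose by 0.86. In the eIF2 complex Eif2s3x rose and Eif2s1, at 0.01, did not pass. Scaled to total counts, 1 rose and 24 fell among the proteasome genes, 3 rose and 23 fell among the cytosolic ribosomal protein genes, and 12 rose and 17 fell among the translation factors. Called were 86.5% of the proteasome genes, 54.1% of the ribosomal protein genes and 69.4% of the translation factors, against 36.1% of all tested genes. Their median 3′ UTRs were 270, 119 and 540 nt. In the quintile with the shortest 3′ UTRs 46.9% of genes fell, and its median of -0.669 was near that of the ribosomal list. The part of 3′ UTR length in these falls was not tested.

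In a list of 24 genes for proteins that hepatocytes secrete, 23 fell and none rose, while other lists of secreted proteins were more mixed. The median of the list was -0.79, and it held 17.1 to 18.7% of counts at 18 h and 12.6 to 15% at 3 wk, lower in 4 of 4 livers. Albumin (Alb), whose shares of counts are given above, did not overlap between groups and fell by 0.72 (SE 0.05) with adjusted p = 6.87e-09. Haptoglobin (Hp), which binds free haemoglobin, fell by 1.24 (SE 0.07), alpha-1-microglobulin precursor (Ambp) by 1.27 (SE 0.07) and transthyretin (Ttr), a carrier of thyroid hormone, by 1.01 (SE 0.07). All 13 apolipoprotein genes passed, with 11 falls and 2 rises (median -1.07). Apoa1, the main protein of high-density lipoprotein, stood at 7546, 7684, 8511 and 6758 CPM at 18 h and 2442, 2845, 3709 and 2202 CPM at 3 wk. The groups were well apart and Apoa1 fell by 1.47 (SE 0.07), Apoa2 by 1.4 (SE 0.07), Apoe by 1.34 (SE 0.07) and Apom by 1.51 (SE 0.08). The 2 that rose were Apob, the large structural protein of very-low-density lipoprotein, at 0.25 ± 0.06, and Apon at 0.93. Apob did not pass without animal 41 (adjusted p = 0.0501) or animal 44 (adjusted p = 0.0603).

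Of 39 complement and coagulation genes 24 fell and 4 rose (median -0.46), including protein C (Proc), an inhibitor of clotting, which fell by 1.25 (SE 0.08), and complement C3, which fell by 0.99 (SE 0.07) from 5975 to 3011 CPM. Of 23 acute phase genes 16 fell and 3 rose. Among these Crp ran against the list: it stood at 352, 542, 385 and 446 CPM at 18 h and 782, 1040.1, 969 and 1097 CPM at 3 wk, without overlap, and rose by 1.18 ± 0.08 with adjusted p = 2.87e-09. Hemopexin (Hpx), a haem carrier, fell by 1.04 (SE 0.07) and Itih4 by 0.93 (SE 0.07). The median 3′ UTR was 152 nt for the secreted proteins, 182 nt for the apolipoproteins, 362 nt for complement and coagulation and 232 nt for the acute phase genes, where that of Crp was 935 nt. With scaling to total counts 22 of the secreted protein genes and 10 of the apolipoprotein genes fell, while in the complement and coagulation list 11 rose and 17 fell and in the acute phase list 5 rose and 11 fell. On the TMM scale 95.8, 100, 71.8 and 82.6% of these lists were called, in this order. Over all tested genes 36.1% were called, and 69.1% in the quintile of highest level. Among genes of at least 32 CPM, 80.8% of the quintile with the shortest 3′ UTRs fell (median -0.721). The part of level and 3′ UTR length in these lists was not tested.

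Metabolic genes moved in both directions. In the urea cycle and amino acid catabolism 22 of 34 genes fell and 4 rose (median -0.45): the tyrosine-degrading enzyme Hpd stood at 3391, 3186, 2939 and 3221 CPM at 18 h and 1028, 1064, 1281 and 920.5 CPM at 3 wk and fell by 1.58 (SE 0.08), glycine N-methyltransferase (Gnmt) fell by 1.5 (SE 0.08) and argininosuccinate lyase (Asl) by 1.62 (SE 0.11). For fatty acid oxidation 15 of 30 fell and 9 rose. The fatty acid carrier Fabp1 fell by 1.62 (SE 0.08), from 7973 ± 1057 CPM (SD, n = 4) at 18 h to 2631 ± 579 CPM (n = 4) at 3 wk, and the thiolase Acaa2 by 1.19 (SE 0.08), while Pdk4, a brake on glucose oxidation, rose by 1.22. Among 19 lipogenesis genes 10 fell and 6 rose, with the elongase Elovl5 at 1.07 ± 0.07 and ATP citrate lyase (Acly) at 0.79 ± 0.08. Of 24 cholesterol genes 7 rose and 5 fell (14 rose and 4 fell when scaled to total counts), with the sterol sensor Insig1 at 0.65 ± 0.08 and the reductase Tm7sf2 falling by 1.01 (SE 0.09). In the urea cycle and amino acid list 10 rose and 17 fell with scaling to total counts. Of 21 genes for bile acid handling 10 fell and 5 rose. The side-chain hydroxylase Cyp27a1 fell by 1.04 (SE 0.08) and the uptake transporter Slco1b2 rose by 0.60 ± 0.08. With scaling to total counts the balance turned in fatty acid oxidation (12 rose and 8 fell), lipogenesis (7 rose and 2 fell) and bile acid genes (9 rose and 5 fell), so no direction of those 3 lists is stated. On the TMM scale 50% of the cholesterol genes and 71.4 to 84.2% of the other metabolic lists were called. Over all tested genes it was 36.1%, and 69.1% in the quintile of highest level.

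Hepatocytes differ along the blood path of the liver lobule, and genes of both zones rose and fell. Among 16 periportal genes 7 fell and 6 rose, and genes of 1 pathway parted: for gluconeogenesis, Pck1, its rate-setting enzyme, stood at 1130.0, 1446, 1285 and 1122 CPM at 18 h and 2756, 2996, 3267 and 2595 CPM at 3 wk and rose by 1.22 ± 0.07, while Fbp1 stood at 1254, 979, 1069 and 1136 CPM at 18 h and 442, 329, 484 and 379 CPM at 3 wk and fell by 1.45 (SE 0.08). Neither gene's ranges overlapped. The transcript of Pck1 has a 3′ UTR of 627 nt and that of Fbp1 223 nt. Among 16 pericentral genes 8 fell and 4 rose. Scaled to total counts, 8 rose and 5 fell in the periportal list and 6 rose and 6 fell in the pericentral list. Cyp2e1, the P450 enzyme that oxidises furan, stood at 5212, 4856, 4403 and 4576 CPM at 18 h and 3095, 3375, 2915 and 2769 CPM at 3 wk and fell by 0.65 (SE 0.06) with adjusted p = 2.01e-07. Of 36 xenobiotic P450 genes 14 fell and 4 rose, with Cyp2d10 falling by 0.89 (SE 0.08) and Cyp2c38 rising by 0.84 ± 0.09, and total-count scaling turned this balance (14 rose and 8 fell). Of 25 liver-enriched transcription factors 9 rose and 9 fell, and scaled to total counts 10 rose and 4 fell. Cebpb and Cebpa rose by 0.99 ± 0.09 and 0.78 ± 0.07, and the oxysterol receptor Nr1h3 (LXR-alpha) and Onecut2 fell by 1.06 (SE 0.09) and 0.80 (SE 0.10).

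Genes that a study of furan would read as its response also differed between fixation times, although all 8 pieces had furan. Of 37 genes controlled by NRF2, a factor induced by electrophiles and oxidants, 9 rose and 12 fell (median -0.01), and with total-count scaling 17 rose and 8 fell. On the TMM scale 56.8% of the NRF2 list was called, against 36.1% of all tested genes. The glutathione transferase Gstm1 stood at 3305, 3109, 3544 and 3349.9 CPM at 18 h and 5668, 5344, 6960.0 and 6869 CPM at 3 wk and rose by 0.89 ± 0.06 with adjusted p = 6.49e-09, while Gsta4, another transferase, fell by 1.32 (SE 0.11). The ferritin light chain Ftl1 fell by 0.86 (SE 0.06), and a same-strand gene and near-identical copies share its end. The quinone reductase Nqo1 overlapped between groups and did not pass (0.17 ± 0.18, adjusted p = 0.497). Of 30 targets of p53 10 rose and 2 fell (median 0.34, against -0.05 over all genes). With 40% called, the p53 list was near the 36.1% over all tested genes. The p53-induced nuclear protein Trp53inp1 stood at 31.4, 26.5, 37 and 28.4 CPM at 18 h and 92.8, 84.3, 76 and 87.9 CPM at 3 wk and rose by 1.48 ± 0.13, and the zinc finger gene Zmat3 by 1.05 ± 0.19. The cell-cycle inhibitor Cdkn1a (p21) stood at 41.4, 39.6, 51.3 and 42 CPM at 18 h and 58.9, 48, 64.3 and 59.7 CPM at 3 wk. The ranges overlapped, and it rose by 0.41 ± 0.12 (adjusted p = 0.0129), but did not pass without animal 41 or without animal 44 (adjusted p = 0.0954 and 0.0741). The p53 ligase Mdm2 rose by 0.37 ± 0.11, not passing without animal 41 (adjusted p = 0.117), and the apoptosis activator Bax fell by 0.61 (SE 0.14), a call that was lost with scaling to total counts (-0.29, adjusted p = 0.142).

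Of 28 immediate early genes, which respond within minutes to growth and stress signals, 10 rose and 1 fell (median 0.56). With 39.3% called, this list was near the 36.1% over all tested genes. The AP-1 subunit Jund stood at 56.3, 51.8, 46.4 and 55.2 CPM at 18 h and 136, 146, 119.8 and 128 CPM at 3 wk and rose by 1.34 ± 0.10, the phosphatase Dusp6 rose by 1.17 ± 0.11 and the zinc finger factor Egr1 by 1.26 ± 0.17. Fos itself did not pass, at 1.73. The median of the list was 0.752, 0.517, 0.621 and 0.413 in animals 41 to 44. Of 21 heat shock and metallothionein genes 3 rose and 5 fell, near the background of 20.2% falling, and the balance turned when scaled to total counts (8 rose and 3 fell). Metallothionein 1 (Mt1) ranged over 280.4 to 738 CPM at 18 h and 107 to 315 CPM at 3 wk. The ranges overlapped, but all 4 livers were lower at 3 wk and Mt1 fell by 1.32 (SE 0.08) in the paired test. In the list of the endoplasmic reticulum stress response 4 of 27 genes rose and 3 fell, near the background of 15.9% rising, where 14 rose and 0 fell on the scale of total counts. Among them rose the chaperone Hyou1 by 1.07 ± 0.10 and calreticulin (Calr) by 0.68 ± 0.07. Of 18 clock genes 7 rose and 2 fell, with Hlf at 0.81 ± 0.11 and Nr1d2 (REV-ERB-beta) at 0.56 ± 0.10. That is 50% called, against 36.1% of all tested genes. Of 38 cell cycle genes 1 rose, Rrm2, and 1 fell, Tk1. Rrm2 did not pass without animal 41, 43 or 44, nor Tk1 without animal 41 or with scaling to total counts, where 4 rose and 0 fell in the list.

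Among genes of the matrix and of sinusoidal endothelium more rose than fell. Of 34 matrix and fibrosis genes 13 rose and 3 fell (median 0.39, 47.1% called), and the list held 0.178 to 0.184% of counts at 18 h and 0.261 to 0.298% at 3 wk, higher in 4 of 4 livers. Such shares are on the scale of total counts and not on the TMM scale. By that measure the MHC class I list, with more falls than rises, also went up, from a mean of 0.746% to 0.872%. Sparc, a matrix glycoprotein, stood at 132, 134, 144 and 132 CPM at 18 h and 185, 224, 244 and 240.3 CPM at 3 wk and rose by 0.71 ± 0.09, and collagen VI (Col6a2) rose by 1.4 ± 0.21, while smooth muscle actin (Acta2), the marker of activated stellate cells, ranged over 14.5 to 26.3 CPM at 18 h and 2.01 to 12.4 CPM at 3 wk and fell by 1.69 (SE 0.28). Of 18 sinusoidal endothelial markers 7 rose and 2 fell (median 0.43, 50% called). The VEGF receptor Kdr stood at 11.6, 11.2, 12.4 and 9.54 CPM at 18 h and 33, 35.4, 24.2 and 30.1 CPM at 3 wk and rose by 1.45 ± 0.19, and VE-cadherin (Cdh5) by 1.05 ± 0.19. Kupffer cell and macrophage markers rose in 5 of 19 cases and fell in 1, with Vsig4 at 1.05 ± 0.15. That is 31.6% called, below the 36.1% over all tested genes. Of 15 stellate markers 5 rose and 2 fell (46.7% called), the matrix protein gene Reln at 0.60 ± 0.12 and Ecm1 falling by 0.99 (SE 0.11). The median 3′ UTR was 965 nt in the matrix list and 1342 nt in the endothelial list. The main hepatocyte genes took a smaller share of the 3 wk libraries, as given above, and the part of that in these rises was not tested. MHC class I genes fell in 9 of 17 cases and rose in 2, and scaled to total counts 6 rose and 6 fell. Interferon-stimulated genes fell in 6 of 33 cases, near the background of 20.2%, and rose in 3, and on that scale 12 rose and 4 fell, with Ifi27 falling by 1.46 (SE 0.11) and Iigp1 rising by 0.51 ± 0.08.

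Markers of cells that liver sections can hold in small numbers stayed low at both times. The 17 T and NK cell markers summed to 0.00118 to 0.00168% of counts at 18 h and 0.00167 to 0.00213% at 3 wk, and none of the 7 tested passed. The 12 neutrophil markers summed to 0.00035 to 0.000737% of counts at 18 h and 0.000282 to 0.00181% at 3 wk, with 3 tested and none passing, and the 12 cholangiocyte markers to 0.00637 to 0.00734% of counts at 18 h and 0.00791 to 0.0101% at 3 wk. In the exocrine pancreas list 8 of 15 genes were at 0 in all 8 libraries and 1, the elastase gene Cela1, was tested. In the erythroid list 7 of 12 were at 0 in all 8 libraries, and the 2 tested, Alas2 and Klf1, fell. In the muscle-rich 3 wk piece of animal 42, titin (Ttn) had 1996 counts against 9 to 38 in the other 3 wk pieces. Ttn and the muscle calcium pump Atp2a1 did not pass (1.01 ± 1.11 and 2.18 ± 1.52), and both turned negative without animal 42.

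Nuclear long non-coding RNAs, which stay at sites of transcription or in nuclear bodies, rose in 6 of 14 cases and fell in 1 (50% called). Neat1, the scaffold of paraspeckles, stood at 207, 321, 239 and 272 CPM at 18 h and 422, 520.5, 361 and 549.6 CPM at 3 wk and rose by 0.84 ± 0.09. Xist, which coats the inactive X chromosome, rose by 0.64 ± 0.08, and Malat1, a speckle-associated RNA, by 0.74 ± 0.12 with overlapping ranges. Meg3, with overlapping ranges and an annotated gene on the opposite strand, fell by 0.95 (SE 0.17). Of 22 tested RNAs without a poly(A) tail 5 rose and 1, Rn45s, fell (-0.38 ± 0.08). That is 27.3% called, below the 36.1% over all tested genes. The Rn45s difference was not past the threshold without the animal block, in DESeq2, or with scaling to total counts. Zinc finger (Zfp) genes, most of which encode transcription factors, rose in 38 of 286 cases and fell in 17, so 13.3% rose against a background of 15.9%. The falls lay further below their background of 20.2%, and 19.2% of the list was called, against 36.1% of all tested genes. Scaled to total counts, 67 rose and 5 fell among them.

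Among 17 genes in common use as normalization references, 4 rose, 5 fell and 8 did not pass (6 rose and 4 fell when scaled to total counts). That is 52.9% called, where 36.1% of all tested genes and 69.1% of the quintile of highest level were called. Cytoplasmic actin (Actb) stood at 643, 756, 772 and 737 CPM at 18 h and 1574, 1658, 1960.5 and 1717 CPM at 3 wk, without overlap, and rose by 1.25 ± 0.07. Ywhaz rose by 0.94 ± 0.08, Rplp0 fell by 0.91 (SE 0.09), Rpl13a by 0.74 (SE 0.08) and Eef1a1 by 0.69 (SE 0.07). Beta-2-microglobulin (B2m), the light chain of MHC class I, stood at 1946, 1822, 1731 and 1868 CPM at 18 h and 1949.6, 1912, 2097 and 1912 CPM at 3 wk and did not pass, with a difference of 0.10 ± 0.07 (adjusted p = 0.295). Nor did Tbp (0.25 ± 0.25), at 8.49 to 14.4 CPM over both groups. Gapdh and Ppia, at 0.573 to 2.88 CPM and 0.0752 to 2.56 CPM, have near-identical copies that share their reads, so their levels say little.

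**Figure D4:**
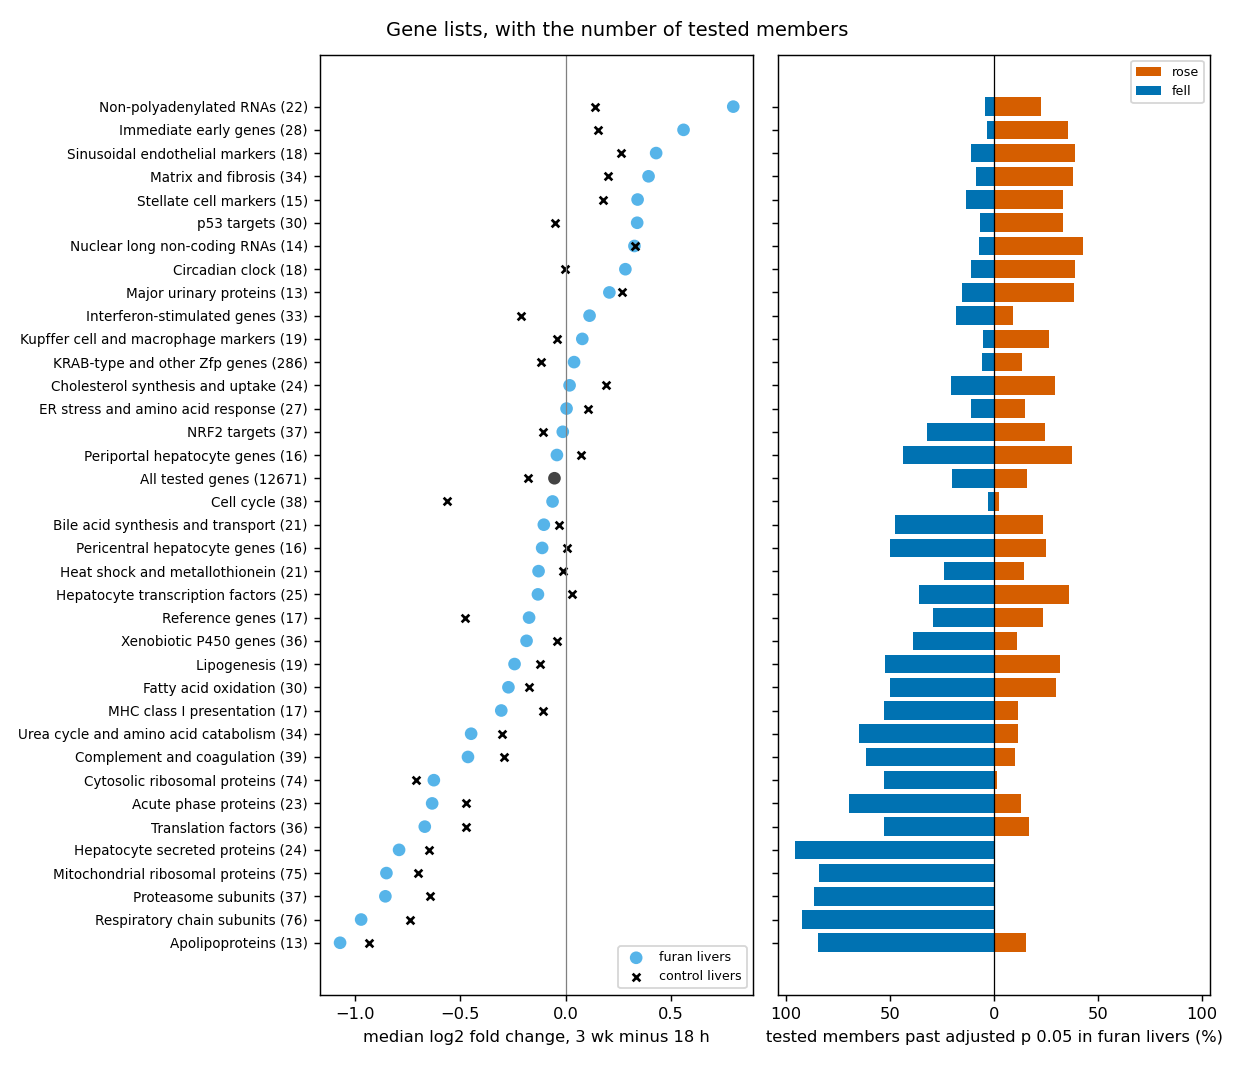
Gene lists with 13 or more tested members, ordered by median. Left, median log2 fold change of 3 wk over 18 h in furan livers (dots, the dark dot for all tested genes) and in control livers (crosses); right, percent of tested members that rose or fell in furan livers. The bottom 5 lists, from apolipoproteins (-1.07) to hepatocyte secreted proteins (-0.79), have 2 rises among 13 apolipoproteins and none in the other lists.

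Control livers, given corn oil without furan and processed in the same way, allowed a test of whether furan changed the difference between fixation times. In 4 control pairs 446 genes rose and 794 fell, 10.1% of 12242 tested. One of their 18 h libraries held 37.3% Rn45s against 6.42 to 7.22% in the other control 18 h pieces. Of the 4572 genes called in furan livers 4560 were measured in controls, and 92.2% of those had the same sign there, against 75.3% of all genes. The 1182 genes called in both, which are 25.9% of the furan calls and 95.3% of the control calls, all had the same sign. The 2 sets of log2 fold changes, which share no library, had a Pearson r of 0.457 across 12102 genes and of 0.664 across the 9393 of at least 5 CPM at 18 h in furan livers, where genes are not independent replicates.

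The interaction of treatment and fixation passed for 0 of 13282 genes (0% of those tested) in edgeR, with 818 genes at an unadjusted p under 0.05. DESeq2, run as an alternative, called 48, of which 47 had a more negative difference in furan livers and 1, Ptprd (chosen after its values were seen), a more positive one. The 4 genes with the smallest p in edgeR all had an adjusted p of 0.783. The oxygen-sensing hydroxylase Egln2 fell by 1.09 (SE 0.11) in furan livers, where the control difference was -0.38 and did not pass (adjusted p = 0.0867). Apol9b fell by 1.15 (SE 0.10) in furan livers, and its control difference was also -0.38 (adjusted p = 0.145). Smpd3 and Otub2, both below 6 CPM, did not pass in furan livers (0.28 ± 0.60 and -0.20 ± 0.60), and in the control 3 wk pieces Smpd3 was at 0 counts in 4 of 4 and Otub2 in 3 of 4. Cyp2t4 lies opposite Egln2 and Prmt7 opposite Smpd3. Of the 50-nt stretches in the last 300 nt of Apol9b, 47.8% occur in another annotated gene, so the counts of Egln2, Smpd3 and Apol9b are uncertain. That the interaction did not pass does not show that furan and control livers were alike.

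**Figure D5:**
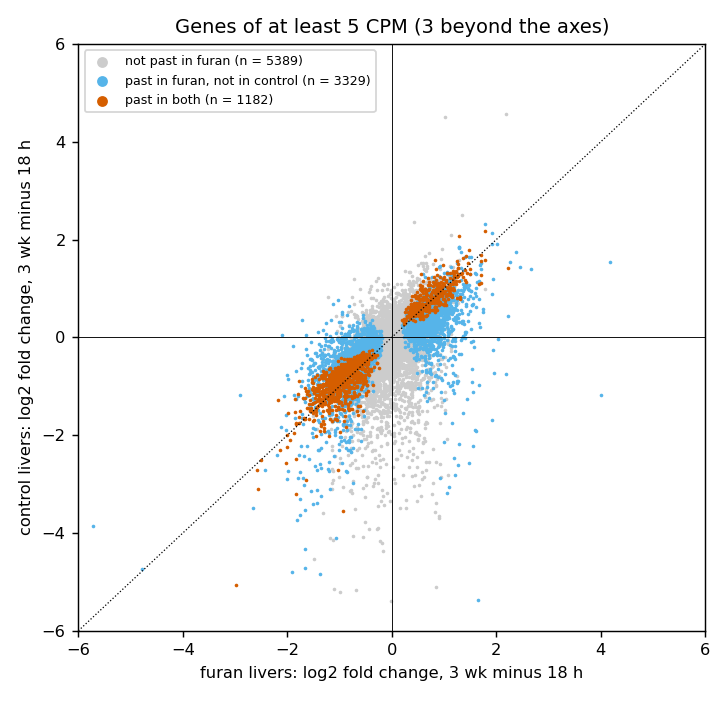
Fitted log2 fold change of 3 wk over 18 h in furan livers (horizontal) and control livers (vertical) for genes of at least 5 CPM in either furan group, with 3 genes beyond the axes. The 1182 genes past the threshold in both lie in the lower left and upper right quadrants, near the dotted line of equality.

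Frozen pieces of animals 41, 43 and 44 gave a further reading of the same genes, with the caution that frozen RNA was extracted with another kit and that both distances use the same frozen libraries. A common scale was set over 11 libraries (3 frozen, 4 at 18 h and 4 at 3 wk), and distances and means were taken over animals 41, 43 and 44 only. The 3 wk piece was nearer to frozen than the 18 h piece for 69.1% of the rises, 65.6% of the falls and 52.8% of genes not called. Sec62 averaged 156 CPM in frozen pieces, 817 CPM at 18 h and 151 CPM at 3 wk. Eif5b averaged 138, 587 and 119 CPM, and Apoa1 3119.7, 7813 and 2808 CPM. For these 3 genes the 3 wk mean was the one near the frozen mean. Actb went the other way, with 394 CPM frozen, 737 at 18 h and 1769.7 at 3 wk, and so did Gstm1, with 914, 3492 and 6575 CPM. By 3′ UTR length, the median of 18 h minus frozen went from 0.761 in the shortest quintile to -0.529 in the longest, and that of 3 wk minus frozen from 0.0665 to -0.311. With scaling to total counts the 3 wk piece was nearer for 72% of the rises and 61.9% of the falls.

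The spread between the libraries of a group was larger at 3 wk. The common dispersion was 0.0210 at 18 h and 0.152 at 3 wk, which correspond to coefficients of variation between libraries of 14.5% and 39.0%. After thinning all libraries to 1 total these were 12.1% and 33.8%. The same livers gave both groups, and these values hold differences between pieces and libraries beside those between animals. Among 3371 genes of at least 32 CPM, the median SD of log2 CPM was 0.1095 at 18 h and 0.204 at 3 wk. The share of genes called rose with level, from 3.00% in the lowest quintile of mean CPM (up to 3.73 CPM) to 69.1% in the highest (over 52.6 CPM), so a low gene that did not pass was often not measured well enough to say. Log2 ratios of 2 animals correlated across all genes at 0.258 to 0.474, and at 0.761 to 0.908 across 3941 genes of at least 32 CPM, with genes not independent.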

How the data were processed

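RNA-seq libraries were sequenced from mouse liver pieces, and the authors deposited a table of raw read counts per gene symbol, which has 24 sample columns, 2 of which matched no sample label and were not used. CASAVA 1.8.2, STAR 2.3.0, featureCounts 1.4.4 and the build mm9 are named per the submitters' processing notes. The strand setting of the counting and the annotation are not given in the sources used here. Depth ranged from 3895208 to 22494012 counts in the 8 libraries.

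Counts were fitted with edgeR 4.0.16 in R 4.3.3 (filterByExpr, TMM scaling, quasi-likelihood test, animal as a block, Benjamini-Hochberg adjustment over all genes tested, adjusted p under 0.05). The block rests on the labels, which divide each liver; the deviations of same-numbered libraries correlated at 0.269, 0.151, 0.133 and 0.0884, each library best with its own number. The interaction was fitted over 16 libraries with the animal block. Alternatives used DESeq2 1.42.0 and limma 3.58.1. Named genes were the 12 largest rises and 12 largest falls among called genes of at least 5 CPM without overlap, up to 4 members of smallest p per list, the 4 smallest interaction p, and fixed genes; other members were chosen after their values were seen. The members and lists were chosen with earlier results of these data known. Lengths, exons and sequences came from GENCODE M21 (GRCm38), matched by symbol for 23639 genes (98.43%), with no coordinates converted. The scripts were tested on simulated data. Some items are not reported here. Counting intervals cover counting error only.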

Additional observations from a re-analysis of the deposited data

Results flagged for a closer look

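In 7 of 78 groups of 4 libraries, 1 library lay far from the rest by Dixon's test (critical value 0.829); chance gives about 1 in 20. The skeletal muscle genes held 0.148% of counts in the 3 wk piece of animal 42, against 0.00123 to 0.00257% in the other 3 wk pieces. They held 0.00655% in the 18 h piece of animal 44, against 0.00116 to 0.00184% in the other 18 h pieces. Lrrc47 stood at 47.2 CPM in the 3 wk piece of animal 42, and at 20.3 to 21.4 CPM in the others. The 3 wk piece of animal 43, the shallowest library, was high in 3 of the genes that fell most: Eif5b stood at 180.1 CPM there against 83.9 to 91.9 CPM, Ntm at 6.06 CPM against 0.451 to 0.955 CPM, and Dmbt1 at 2.56 CPM against 0.15 to 0.489 CPM. Sox4 stood at 11.5 CPM in the 18 h piece of animal 44 against 7.75 to 7.87 CPM in the other 18 h pieces.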

How the results depend on the processing

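The count of 4572 genes stayed within 1.5 times under every other setting except 2. It was 2702 with all 16 FFPE libraries in 1 model and 1112 when a fold of at least 1.5 was tested. Leaving out 1 animal gave 3367 (without animal 41) to 4498 (without animal 43). Without the replicate block it was 4183, and 554 calls were lost; the block gave Rn45s and Apob their calls. DESeq2 called 48 genes in the interaction. In an exact permutation of 4 against 4, which has no replicate block, log2 total counts (-1.3), the share of the 10 most abundant genes (-5.908 percentage points) and genes detected (-1105) passed at adjusted p = 0.0381. Genes detected here are those with at least 1 count at matched depth. The Rn45s difference ran from -1.556 to 0.462 percentage points when 1 animal was left out. The sign turned for genes that had not passed: Ppia was 0.21 without the replicate block, 0.079 with limma voom, 0.16 with scaling to total counts and -0.76 to 0.59 with 1 animal left out. With scaling to total counts Otub2 was 0.13 and Sdha 0.15. With 1 animal left out, Atp2a1 ran from -1.47 to 5.53, Ttn from -0.88 to 2.78 and Smpd3 from -0.015 to 0.44. Of 111 genes named above that passed, 15 did not pass in the model of 16 libraries, among them Cdk2ap1, Lrrc24, Mfsd4, Muc6, Osbpl3, Peg3, Sfrp1, Snora74a and C230091D08Rik; 26 did not pass at a fold of 1.5. The causes were not tested. The number of libraries, the depth at 3 wk and the 2 sections limit what low genes can show.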
